A study of Mus musculus with 7 samples.

Results

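Integrins are the cell surface receptors by which cells hold on to the extracellular matrix, and laminins are the large matrix proteins that form the framework of basement membranes. Their chains were followed here in cultured cardiac mesenchymal progenitors (CMPs) and in whole hearts of the mouse. With earlier results of these data known, the members were chosen by name: every probe of the array whose gene name is that of an integrin alpha chain, an integrin beta chain or a laminin chain, as far as the naming pattern reaches (the leukocyte gene Itgam lies outside it). This gave 36 genes with 48 probes out of 34588 gene names on the array: 17 integrin alpha chains, 8 integrin beta chains and 11 laminin chains, of which 5 are alpha, 3 beta and 3 gamma chains. Total RNA was hybridised to 7 one-colour Agilent arrays, 1 per sample. CMPs of C57BL/6 adult mice came from postmortem atrium, postmortem ventricle, living atrium and living ventricle, with 1 array each. The postmortem hearts had been held for 24 h at 4 °C before the cells were taken, and all CMPs were grown on collagen I, itself an integrin ligand, in medium with 10% serum and 40 ng/ml bFGF. The adult heart was 1 commercial total RNA whose strain is not given in the labels. Fetal heart was measured in C57BL/6 embryos at day 16.5, with 1 wild type array and 1 array of the C57BL/6-Tg(Myh6-EGFP)MG2 transgenic line, in which the Myh6 promoter drives a green fluorescent protein in heart muscle cells. Both fetal arrays were taken as 1 group. The labels do not say how many mice stand behind each RNA or each culture, and no condition had replicate arrays. A p-value here weighs only a scatter from 2 sources. They are the difference between the wild type and Myh6-EGFP fetal arrays, and how far the chamber difference varied between postmortem and living CMPs. That scatter may be technical or not, and the number of arrays limits the precision.

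An integrin is a pair of 1 alpha and 1 beta chain, and the alpha chain largely sets the ligand: collagens, laminins, proteins with the RGD motif such as fibronectin and vitronectin, or counter-receptors on other cells. The beta chain encoded by Itgb1 pairs with many alpha chains, while Itgb2 is the shared chain of the leukocyte integrins. A laminin is a cross-shaped trimer of 1 alpha, 1 beta and 1 gamma chain. In the adult heart each muscle fibre lies in a basement membrane in which the Lama2 chain prevails, blood vessels carry Lama4 and Lama5 chains, and the Lamc1 chain is part of most laminins.

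A few probes are printed because the results below turn on them and because they show what the array reads. The used probe of Itgb1 (mm9 chr8:131250081-131255976, plus strand) crosses a splice junction. Its capitals mark both NPxY codon runs, the docking motif for talin and kindlin in integrin tails. The probe of Itga2 (mm9 chr13:115626714-115626773, minus strand) holds the codons of the GFFKR motif, the membrane-proximal signature of integrin alpha chains, in capitals.
Itgb1: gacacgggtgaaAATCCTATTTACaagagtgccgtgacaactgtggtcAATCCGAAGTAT
Itga2: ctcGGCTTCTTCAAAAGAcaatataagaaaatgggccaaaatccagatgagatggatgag
Read on the printed strand in a frame without a stop codon, NPxY codons were found in 48 of 55681 probes of the array (0.0862%) and GFFKR codons in 1 probe (0.0018%). Among the 48 member probes each motif was found in 1. The used probe of Itgb6 (mm9 chr2:60438632-60443247, minus strand) also crosses a junction. It is shown with the used probes of a laminin chain that was higher in CMPs than in adult heart and of one that was higher in CMPs than in fetal heart: Lama4 (mm9 chr10:38825794-38825853, plus strand) and Lamb2 (mm9 chr9:108392189-108392248, plus strand). Nothing is in capitals in these.
Itgb6: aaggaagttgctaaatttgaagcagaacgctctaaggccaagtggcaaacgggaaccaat
Lama4: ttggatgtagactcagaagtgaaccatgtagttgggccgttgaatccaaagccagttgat
Lamb2: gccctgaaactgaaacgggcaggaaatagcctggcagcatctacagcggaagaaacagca
Each of these 60-base probes has at least 1 reading frame without a stop codon.

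The share of probes well above background ran between 46.5% and 52.5% per array. The CMP arrays and the heart arrays lay in different rows of 1 slide, so culture against tissue and slide row cannot be told apart. Heart muscle markers were low in CMPs: Actc1, Myh6, Myl3, Tnni3 and Ttn of the 8 cardiomyocyte markers were not well above background on any CMP array. Tnnt2 was detected on all 4 CMP arrays, at 0.12 to 4.10, against 9.95 in adult heart, and Myl2 and Ryr2 on some CMP arrays. The summed level of the list (signals relative to the array's 75th percentile) was 1.41 to 17.4 in CMPs, 7373 in adult heart and 2694 to 4673 in fetal hearts. All 8 stromal markers, among them Col1a1 and Pdgfra, were detected on all arrays, with a summed level of 1589 to 2121 in CMPs, 594 in adult heart and 435 to 590 in fetal hearts. A pair of arrays stood apart. Postmortem atrial CMP differed from the other CMPs at least 2-fold in 4652 to 5262 of 24737 genes, against 2391 to 2697 among the other 3. The wild type fetal array carried lung epithelial transcripts: 5 of 6 genes of a list chosen after its values were seen (Sftpc, Sftpb, Sftpa1, Cldn18, Ager) were well above background there, with a summed level of 11.5, and none was on the other 6 arrays, where the sum was 0.0935 to 0.202. Results that rest on either array are given with and without it. Without 1 CMP array, a fit keeps no scatter among the CMPs, and its p-values take their spread from the fetal pair alone. Against the hearts such a fit uses the mean of postmortem ventricular and living atrial CMP, or of postmortem atrial and living ventricular CMP. Leaving out either array of the other pair thus gives the same difference. Without 1 fetal array, the p-values take their spread from the CMPs alone, so a call can be lost while its difference hardly moves.

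In CMPs the integrin and laminin repertoire was split. Chains of the collagen receptor Itga11, of the vitronectin receptors (Itgav, Itgb3, Itgb5), the shared beta chain Itgb1 and the laminin chains Lamb1 and Lamc1 were higher in CMPs than in fetal and in adult heart. Itga6, Itga2b, Itga9, Itgb7 and Lamb3 were lower in CMPs than in both. Itga7 was higher in CMPs than in fetal heart and lower than in adult heart, and Lama1 was the reverse. Of the 32 members tested against fetal heart, 10 were higher in CMPs and 10 lower (limma, Benjamini-Hochberg adjusted p under 0.05 over all genes tested), where 47.9% of all genes tested passed (22.8% higher, 25.1% lower). Of the 33 tested against adult heart, 11 were higher and 10 lower, where 49.2% of all genes passed (24.6% in each direction). Passing was thus common on the whole array, and the members' median log2 difference was -0.27 against fetal heart (-0.01 over all genes) and -0.05 against adult heart (-0.00 over all genes). Both comparisons share the 4 CMP arrays. In these mixtures of RNA from many cells, fewer cells of a type and less RNA per cell cannot be told apart. Of the 36 members, 25 were well above background on all 7 arrays, 28 on all 4 CMP arrays, 30 in adult heart and 31 on both fetal arrays. Itgad and Itgae, the alpha chains of leukocyte integrins, were not well above background on any array.

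**Figure D1:**
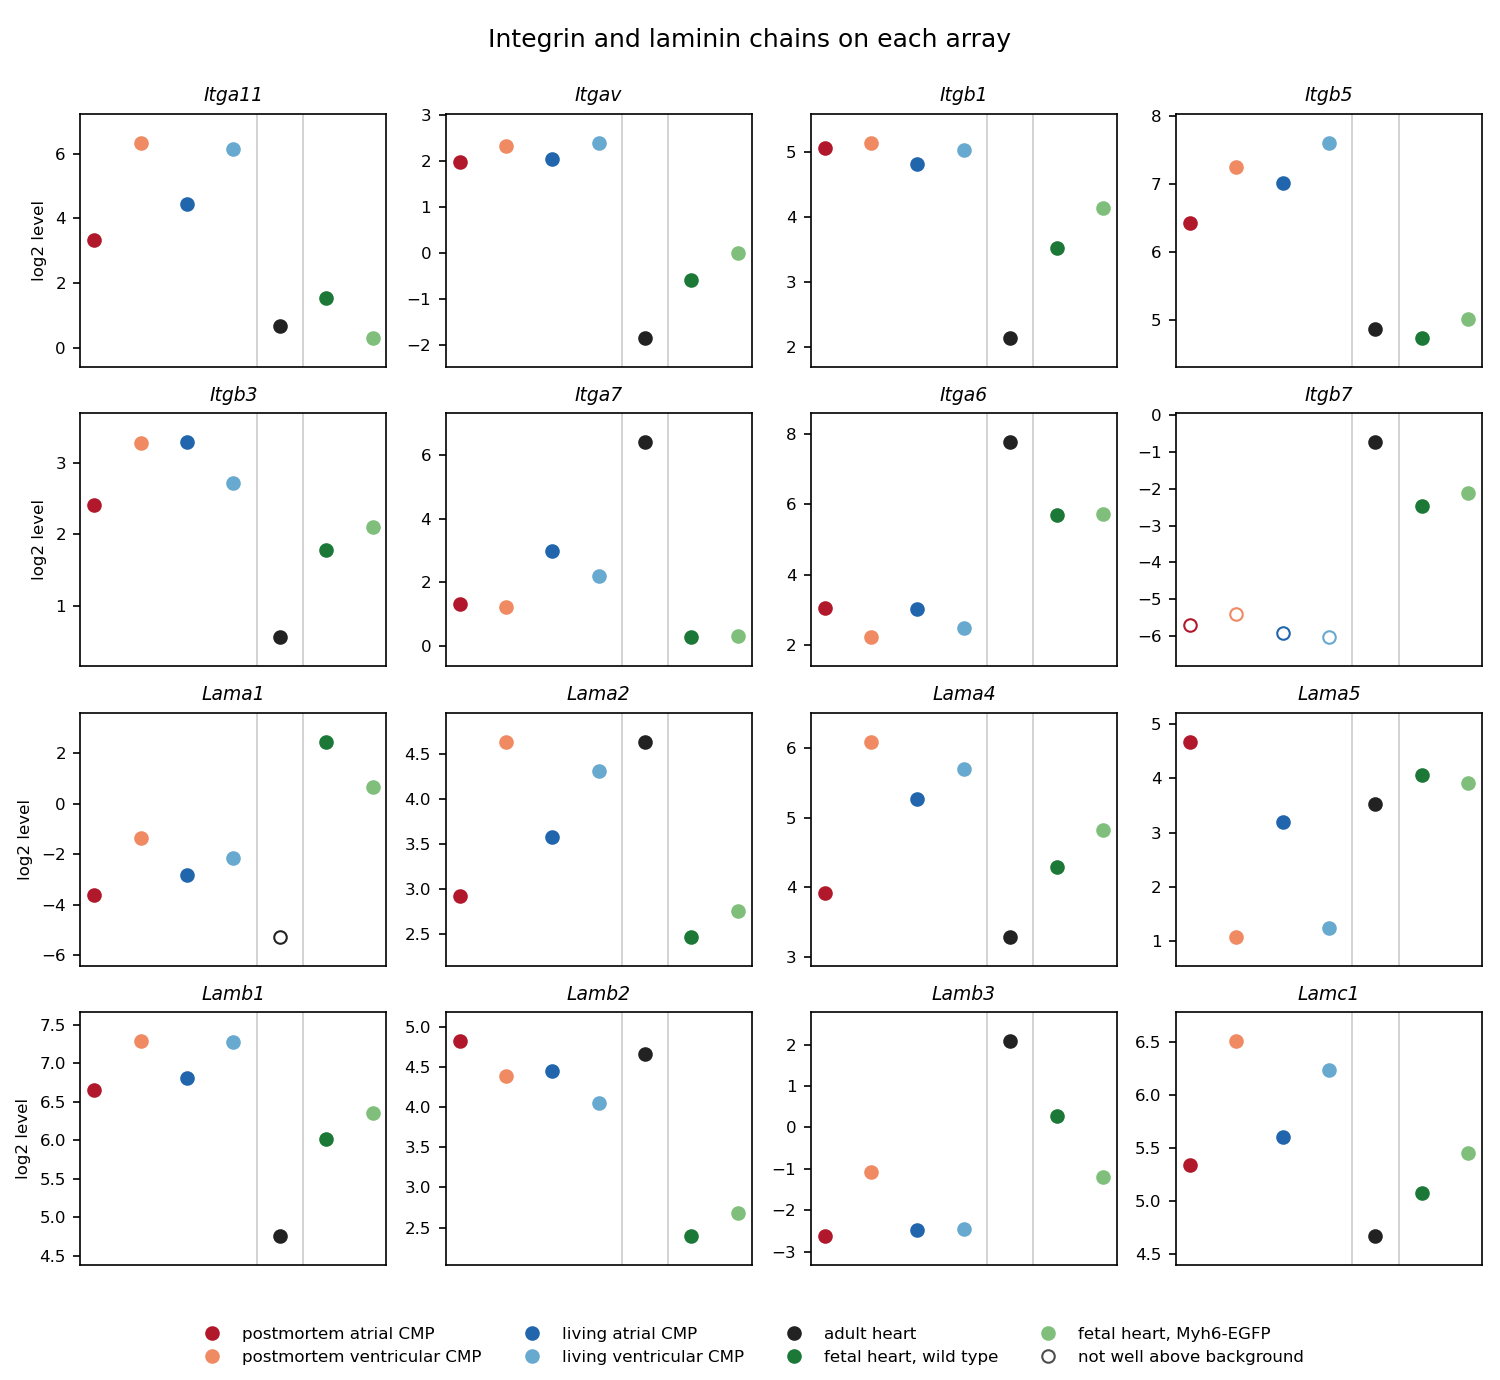
Log2 level (signal relative to the array's 75th percentile, y axis, scaled per gene) of 16 integrin and laminin chains on each of the 7 arrays, 1 point per array. Open points were not well above background. Itga11, Itgav, Itgb1 and Itgb5 lie above all hearts in all 4 CMPs, while Itga6 and Itgb7 lie below.

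**Figure D2:**
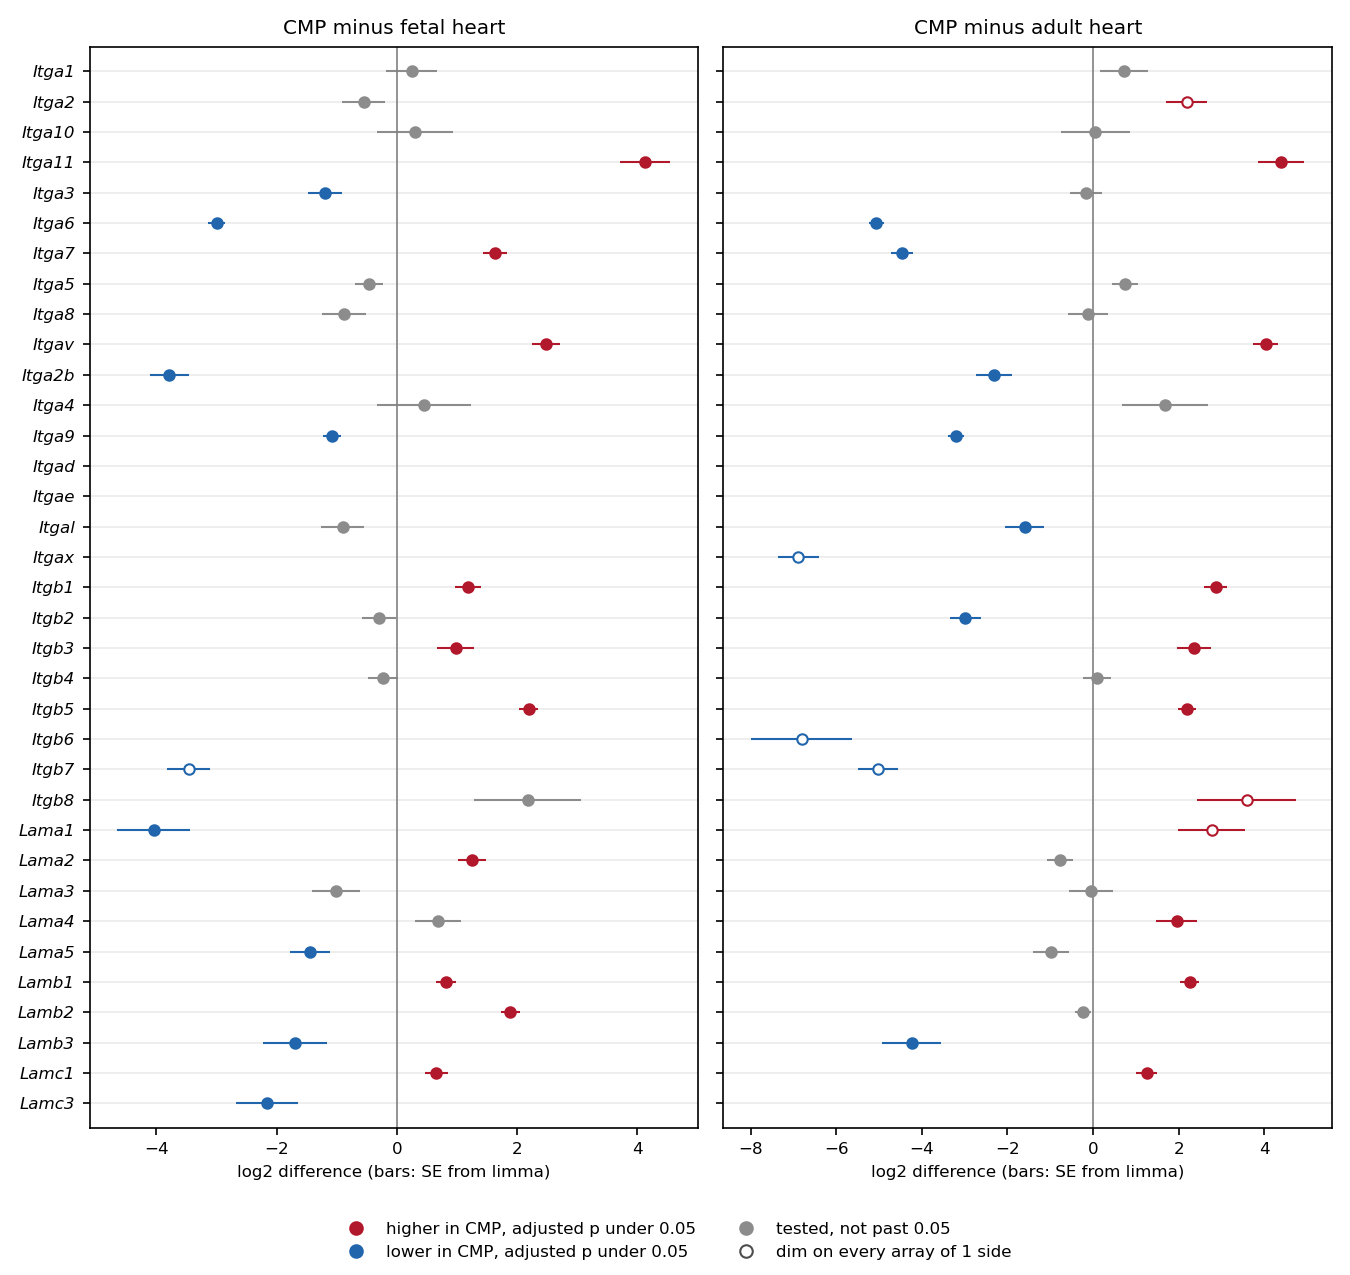
Log2 difference with its limma standard error (x axis) for the tested members shown, CMP minus fetal heart on the left and CMP minus adult heart on the right. Members run by role from collagen receptors at the top to laminin gamma chains at the bottom. Red points are higher and blue points lower in CMPs at an adjusted p under 0.05, and open points were dim on every array of 1 side. The adult heart side is 1 array.

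Itga11, the collagen I receptor chain of fibroblasts, had the largest rise of any member against both hearts. Its level was 3.33, 6.34, 4.44 and 6.16 in CMPs (here and below in the order postmortem atrial, postmortem ventricular, living atrial, living ventricular), 0.67 in adult heart, and 1.55 and 0.31 in fetal hearts (wild type, then Myh6-EGFP). All 4 CMPs lay above all 3 hearts, and both ventricular CMPs above both atrial ones. The log2 difference was 4.13 ± 0.42 (SE) against fetal heart (limma adjusted p = 0.00112) and 4.39 ± 0.55 against adult heart (limma adjusted p = 0.00221). Against fetal heart it was 4.75 without the wild type and 3.51 without the Myh6-EGFP array. The other collagen receptor chains did not share this. Itga1, a collagen IV receptor chain, averaged 1.48 ± 0.66 in CMPs and 1.23 ± 0.77 in fetal hearts (SD, n = 4 and 2) and was 0.75 in adult heart, with overlapping groups. Itga1 passed against neither heart, and its difference from adult heart was 1.10 without the postmortem atrial or the living ventricular array. Its second probe, detected on all 7 arrays, went the other way against adult heart (-0.52, and 0.73 by the used probe). Itga10, the collagen receptor chain best known from cartilage, was 1.62 in postmortem atrial CMP and -1.83 to -2.11 in the other CMPs, against -1.09 in adult heart and -1.23 and -1.44 in fetal hearts. Its second probe gave 1.63 in postmortem atrial CMP and -1.71 to -2.18 in the other CMPs. Itga10 passed against neither heart. Its difference from fetal heart was 1.09 without the postmortem ventricular or the living atrial array. Itga2, which binds collagen I on platelets and epithelia, lay between -3.25 and -3.91 in CMPs and at -3.28 and -2.75 in fetal hearts, and was not well above background in adult heart. It passed the test against adult heart (limma adjusted p = 0.0130), but dim adult signal leaves no fold to state, and with normexp background correction the call was lost.

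The laminin receptor chains parted by tissue. Itga7, the main laminin receptor chain of skeletal and heart muscle, was 1.31, 1.24, 2.98 and 2.19 in CMPs, 6.39 in adult heart, and 0.28 and 0.31 in fetal hearts. No groups overlapped. CMPs exceeded fetal hearts by 1.64 ± 0.20 (limma adjusted p = 0.00184) and lay below adult heart by a log2 difference of -4.46 ± 0.26 (limma adjusted p = 0.000351). In the same arrays most cardiomyocyte markers given above, though not Tnnt2, were near background in CMPs, and their part in the adult level was not tested. Itga6, a laminin receptor chain of epithelia, endothelia and stem cells, was 3.06, 2.23, 3.04 and 2.49 in CMPs, 7.76 in adult heart, and 5.69 and 5.71 in fetal hearts. It was lower in CMPs with a difference of -3.00 ± 0.14 against fetal heart (limma adjusted p = 0.000155) and of -5.06 ± 0.18 against adult heart (limma adjusted p = 0.000205). Endothelial markers, all 8 of them detected in hearts and 7 or 8 in CMPs, summed to 12.4 to 40.8 in CMPs, 165 in adult heart and 86.7 to 88.0 in fetal hearts. Of these 8, 6 were lower in CMPs than in fetal heart and 4 lower than in adult heart, with 0 higher. Egfl7 was the brightest in adult heart (7.02). Kdr did not follow the sum, at 2.71 to 3.44 in CMPs, 3.57 in adult heart, and 2.74 and 3.46 in fetal hearts. The part of endothelial markers in the Itga6 level was not tested.

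Both Itga6 probes agreed on CMPs against fetal heart and not on adult heart. The used probe (mm9 chr2:71690633-71690692, plus strand) is listed under an Ensembl transcript, and the second (mm9 chr2:71694756-71694815, plus strand) under the RefSeq transcript. The first 30 bases of each are shown since the gene's direction between adult and fetal heart depends on which is read. Nothing is in capitals.
Itga6 used probe: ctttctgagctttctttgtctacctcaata
Itga6 second probe: gagaatgagaacctgggaggtcttgttgtt
The second probe read 2.91, 3.53, 3.22 and 2.65 in CMPs, 3.95 in adult heart, and 5.77 and 6.68 in fetal hearts. CMP minus fetal heart was -3.00 by the used and -3.15 by the second probe. CMP minus adult heart was -5.06 by the used and -0.87 by the second, and adult minus fetal heart was 2.06 by the used and -2.28 by the second. Both probes read lower in CMPs than in fetal heart, and the level in adult heart depended on the probe. With the mean of both probes the adult minus fetal difference was -0.11 (limma adjusted p = 0.776). Itga3, the third laminin receptor chain, was -1.20, -2.04, -0.90 and -2.43 in CMPs, -1.49 in adult heart, and -0.26 and -0.63 in fetal hearts. It was lower in CMPs than in fetal hearts with a difference of -1.20 ± 0.29 (limma adjusted p = 0.0192), which no longer passed without the postmortem atrial array (-1.02), the wild type fetal array (-1.01) or the Myh6-EGFP array (-1.38).

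**Figure D3:**
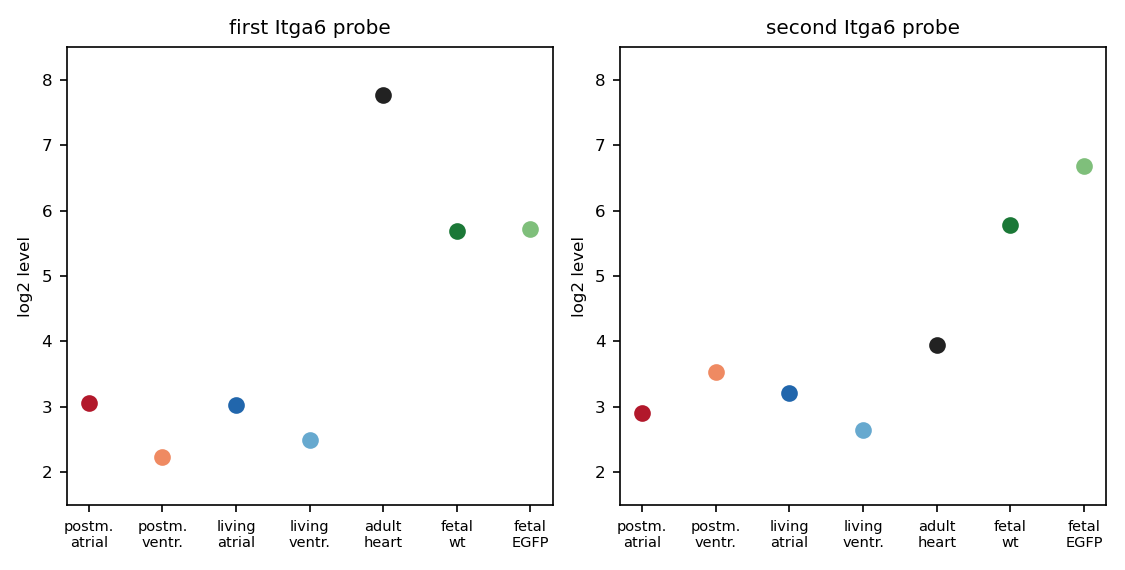
Log2 level (y axis, same range in both panels) of the used Itga6 probe, left, and the second probe, right, on each of the 7 arrays. Adult heart is the highest of the 7 by the used probe (7.76) and lies between CMPs and fetal hearts by the second (3.95).

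Among the receptors for RGD ligands, Itgav, Itgb3 and Itgb5 were higher in CMPs than in both hearts. Itgav, which pairs with the beta chains of Itgb1, Itgb3, Itgb5, Itgb6 and Itgb8, was 1.98, 2.32, 2.04 and 2.40 in CMPs, -1.85 in adult heart, and -0.58 and -0.01 in fetal hearts. The 4 CMPs spanned 0.42, less than either gap to the hearts. The difference was 2.48 ± 0.23 against fetal heart (limma adjusted p = 0.000808) and 4.03 ± 0.29 against adult heart (limma adjusted p = 0.000582), and the second Itgav probe gave 2.51 and 3.82. Itgb5, the vitronectin receptor beta chain, was 6.43, 7.24, 7.02 and 7.60 in CMPs, 4.87 in adult heart, and 4.74 and 5.01 in fetal hearts. It was higher in CMPs by 2.20 ± 0.16 against fetal heart (limma adjusted p = 0.000437) and by 2.20 ± 0.21 against adult heart (limma adjusted p = 0.00103). Itgb3, which pairs with Itgav or with the platelet chain Itga2b, was 2.41, 3.27, 3.29 and 2.72 in CMPs, 0.56 in adult heart, and 1.78 and 2.11 in fetal hearts. It rose by 2.36 ± 0.40 over adult heart (limma adjusted p = 0.00603). Against fetal heart its 0.98 ± 0.31 passed narrowly (limma adjusted p = 0.0475). That call was lost without the postmortem ventricular or the living atrial array (0.62 each), the wild type fetal array (0.81) or the Myh6-EGFP array (1.15).

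The shared chain Itgb1 had the smallest spread over the CMPs of all 36 members (SD 0.14, n = 4). It was 5.06, 5.13, 4.81 and 5.03 in CMPs, 2.14 in adult heart, and 3.51 and 4.13 in fetal hearts. By the used probe, which crosses a splice junction, it was higher in CMPs than in both hearts. The difference was 1.19 ± 0.21 against fetal heart (limma adjusted p = 0.00661) and 2.87 ± 0.27 against adult heart (limma adjusted p = 0.00101). Its second probe, which crosses no junction, gave 1.46 and 2.21. Splice forms of the gene were not told apart. Itga5, the fibronectin receptor chain, averaged 0.43 ± 0.41 in CMPs and 0.88 ± 0.34 in fetal hearts (SD, n = 4 and 2), was -0.32 in adult heart, and passed in neither comparison. Itga8, the nephronectin receptor chain, ranged over 5.27 among the CMPs and is described with the postmortem comparison.

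Itgb8 and Itgb6, the beta chains that pair with Itgav and release active TGF-beta, went opposite ways against adult heart. Itgb8 was -3.89, -1.44, -0.01 and -1.42 in CMPs, not well above background in adult heart, and -2.99 and -4.74 in fetal hearts, the second of these not well above background. It was at least 3.28-fold higher in CMPs than in adult heart (limma adjusted p = 0.0475). Fits without 1 CMP array hold no scatter among the CMPs and so cannot test this call. The call was lost with normexp background correction. It was also lost without either fetal array, where the difference stayed at 3.595 and only the estimate of the spread changed. Against fetal heart Itgb8 did not pass (2.18 ± 0.90, limma adjusted p = 0.0978). The difference was 3.14 without the postmortem atrial or the living ventricular array. Itgb6, an epithelial chain, was 0.85 in adult heart, -2.59 in the wild type fetal heart, and not well above background in the Myh6-EGFP fetal heart or any CMP. It was at least 32.2-fold lower in CMPs than in adult heart (limma adjusted p = 0.00644). Its second probe was detected in adult heart alone, at -2.96.

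Itga2b, the fibrinogen receptor chain of platelets and megakaryocytes, was -3.83, -4.89, -3.60 and -5.18 in CMPs, of which 2 arrays were well above background, -2.06 in adult heart, and -0.75 and -0.43 in fetal hearts. It was lower in CMPs with a difference of -3.79 ± 0.33 against fetal heart (limma adjusted p = 0.000683) and of -2.31 ± 0.42 against adult heart (limma adjusted p = 0.00759). The 7 megakaryocyte and platelet markers summed to 6.32 to 29.0 in CMPs, 26.1 in adult heart and 17.7 to 20.0 in fetal hearts, so their sums overlapped. Against fetal heart 2 of the 7 were higher and 4 lower in CMPs. Gp6 and Gp1ba were not well above background on any CMP array, and the part of these cells in the Itga2b level was not tested.

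Chains of leukocyte integrins were low in CMPs. Itgax, the alpha chain known as CD11c on dendritic cells and macrophages, was 0.77 in adult heart and not well above background on any other array. It was at least 30.6-fold lower in CMPs than in adult heart (limma adjusted p = 0.000550). Itgb2, the shared leukocyte chain, was -2.83, -2.74, -2.87 and -2.48 in CMPs, 0.26 in adult heart, and -2.49 and -2.37 in fetal hearts, and was lower in CMPs than in adult heart with a difference of -2.99 ± 0.36 (limma adjusted p = 0.00210). Itgal, the alpha chain of LFA-1, was -4.00 (not well above background), -3.40, -3.35 and -2.68 in CMPs, -1.76 in adult heart, and -2.84 and -2.07 in fetal hearts. It fell against adult heart with a difference of -1.60 ± 0.47 (limma adjusted p = 0.0350), a call lost with normexp background correction, with quantile normalization and without the filter on dim probes. Itgb7, which pairs with Itga4 or Itgae on lymphocytes, was not well above background on any CMP array, -0.74 in adult heart, and -2.46 and -2.12 in fetal hearts. It was at least 10.7-fold lower in CMPs than in adult heart (limma adjusted p = 0.000991) and at least 3.66-fold lower than in fetal heart (limma adjusted p = 0.00116). Beside these, the 11 macrophage and leukocyte markers summed to 5.93 to 9.21 in CMPs, 93.0 in adult heart and 29.2 to 30.5 in fetal hearts. Per CMP array 6 to 8 of the 11 were detected, among them Csf1r (1.61 to 2.29), while Emr1 and Laptm5 were not well above background on any. Against adult heart 9 of the 10 tested were lower in CMPs, and against fetal heart 6 were lower and 1 higher. Cd14 was -0.98 to 0.99 in CMPs, 1.19 in adult heart, and -2.41 and -2.98 in fetal hearts. The part of these markers in the integrin levels was not tested.

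Itga9, a tenascin receptor chain, was 0.76, 1.23, 1.02 and 1.52 in CMPs, 4.33 in adult heart, and 2.18 and 2.23 in fetal hearts. It was lower in CMPs with a difference of -1.08 ± 0.15 against fetal heart (limma adjusted p = 0.00299) and of -3.20 ± 0.20 against adult heart (limma adjusted p = 0.000392). Itga4, the VCAM1 receptor chain, was -0.11, 2.27, 1.85 and 0.30 in CMPs, -0.61 in adult heart, and 1.07 and 0.18 in fetal hearts. Its CMP values spread too widely to pass against either heart. Without the postmortem atrial or the living ventricular array its difference was 1.43 from fetal heart and 2.67 from adult heart. Both fits reduce to the mean of postmortem ventricular and living atrial CMP, so they are not separate checks. Itgb4, the hemidesmosome chain that pairs with Itga6, averaged -0.67 ± 0.31 in CMPs and -0.44 ± 0.34 in fetal hearts (SD, n = 4 and 2), was -0.76 in adult heart, and passed in neither comparison.

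Among the laminin alpha chains, CMPs had more Lama2 and less Lama1 and Lama5 than fetal heart. Lama1, the chain of early embryonic basement membranes, was -3.62, -1.36, -2.81 and -2.16 in CMPs, not well above background in adult heart, and 2.45 and 0.66 in fetal hearts. It fell against fetal heart with a difference of -4.05 ± 0.61 (limma adjusted p = 0.00376), the difference being -3.15 without the wild type array with its lung transcripts and -4.94 without the Myh6-EGFP array. It was at least 1.89-fold higher in CMPs than in adult heart (limma adjusted p = 0.0318), a call lost with normexp background correction. Lama2, the chain of muscle basement membranes, was 2.92, 4.63, 3.57 and 4.31 in CMPs, 4.64 in adult heart, and 2.46 and 2.75 in fetal hearts. It was higher in CMPs than in fetal heart by 1.25 ± 0.24 (limma adjusted p = 0.00846), which was lost without the wild type fetal array (limma adjusted p = 0.0650). Its second probe gave 1.30. Against adult heart it differed by -0.78 ± 0.31 without passing, and by -1.02 without the postmortem ventricular or the living atrial array. Lama4, the chain of vessel walls, was 3.91, 6.09, 5.28 and 5.70 in CMPs, 3.29 in adult heart, and 4.30 and 4.82 in fetal hearts. It was higher in CMPs than in adult heart by 1.96 ± 0.48 (limma adjusted p = 0.0208). Against fetal heart it did not pass, and the difference was 1.13 without the postmortem atrial or the living ventricular array. Lama5, a chain of many mature basement membranes, was 4.67, 1.09, 3.20 and 1.24 in CMPs, 3.53 in adult heart, and 4.07 and 3.92 in fetal hearts. It was lower in CMPs than in fetal heart with a difference of -1.44 ± 0.33 (limma adjusted p = 0.0163), although the postmortem atrial CMP lay above both fetal arrays. Without either fetal array Lama5 was no longer called, though its difference hardly moved (-1.37 without the wild type and -1.52 without the Myh6-EGFP array). Against adult heart it did not pass, and its difference was -1.39 without the postmortem atrial or the living ventricular array. Lama3, an epithelial chain, lay between -2.45 and -2.00 in CMPs, at -2.22 in adult heart, and at -0.68 and -1.84 in fetal hearts. It did not pass by its used probe against fetal heart (-1.01 ± 0.40, limma adjusted p = 0.0904), and did at -1.59 without the Myh6-EGFP array. Its second probe was well above background in fetal hearts alone, at -0.88 and -1.46.

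Lamb1 and Lamc1, the beta and gamma chains of the common laminins, were higher in CMPs than in both hearts, and the epithelial chain Lamb3 was lower. Lamb1 was 6.65, 7.29, 6.81 and 7.28 in CMPs, 4.75 in adult heart, and 6.01 and 6.35 in fetal hearts, higher in CMPs by 2.25 ± 0.22 against adult heart (limma adjusted p = 0.00110) and by 0.82 ± 0.17 against fetal heart (limma adjusted p = 0.0113). Without the postmortem ventricular or the living atrial array the difference from fetal heart was 0.78 and no longer passed. Lamb2, the chain that replaces Lamb1 in many mature basement membranes, was 4.83, 4.39, 4.45 and 4.05 in CMPs, 4.66 in adult heart, and 2.39 and 2.68 in fetal hearts. CMPs lay with adult heart (-0.23 ± 0.20) and above fetal heart (1.89 ± 0.15, limma adjusted p = 0.000558). Lamc1 was 5.34, 6.51, 5.60 and 6.24 in CMPs, 4.67 in adult heart, and 5.07 and 5.45 in fetal hearts. It was higher in CMPs than in adult heart by 1.25 ± 0.25 (limma adjusted p = 0.0104) and than in fetal heart by 0.66 ± 0.20 (limma adjusted p = 0.0382), with CMP and fetal values overlapping. The fetal call was lost without the postmortem ventricular or the living atrial array (0.52 each) or the wild type fetal array (0.47).

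Lamb3, a chain of the laminin of epithelial anchoring, was -2.62, -1.07, -2.48 and -2.46 in CMPs, 2.08 in adult heart, and 0.27 and -1.20 in fetal hearts. It was lower in CMPs than in adult heart with a difference of -4.24 ± 0.68 (limma adjusted p = 0.00502). Against fetal heart it was -1.69 ± 0.53 (limma adjusted p = 0.0447), but -0.96 and no longer past the threshold without the wild type fetal array (limma adjusted p = 0.227), and -2.43 without the Myh6-EGFP array. Lamc3, a gamma chain of few tissues, was detected in living atrial CMP alone among the CMPs, at -1.88, and at -2.66 and -2.60 in fetal hearts. The call of its fall of -2.16 ± 0.51 against fetal heart (limma adjusted p = 0.0180) was lost with normexp background correction. It was also lost without the wild type or the Myh6-EGFP fetal array, though the difference hardly moved (-2.19 and -2.13). The 5 epithelial markers measured summed to 0.153 to 0.937 in CMPs, 3.95 in adult heart and 37.8 to 53.8 in fetal hearts. Epcam and Krt8 were not well above background on any CMP array, all 5 were lower in CMPs than in fetal heart, and their part in the levels of Lamb3, Lama3, Itgb6 and Itga3 was not tested.

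Adult and fetal heart differed in the same families. Of 33 members tested, 9 were higher and 7 lower in adult heart, where 37.0% of all genes tested passed (18.8% higher, 18.2% lower). Lama1 was at least 31.2-fold lower in adult heart (limma adjusted p = 0.00407). Its level there was not well above background, against 2.45 and 0.66 in fetal hearts. Itga7, at 6.39 in adult heart against 0.28 and 0.31 in fetal hearts, was higher by 6.10 ± 0.28 (limma adjusted p = 0.000390). Itgax was at least 32.4-fold higher in adult heart (limma adjusted p = 0.00253). Itgb6, at 0.85 in adult heart, was higher by 5.05 ± 1.30 (limma adjusted p = 0.0311). The fetal mean includes the dim Myh6-EGFP array. Against the wild type fetal array alone, where Itgb6 was detected and which carried the lung epithelial transcripts, the difference was 3.43. Without that array it was 6.655, a value that rests on a dim fetal signal. Lamb2 was higher in adult heart by 2.13 ± 0.22 (limma adjusted p = 0.00228) and Lamb1 was lower with a difference of -1.43 ± 0.24 (limma adjusted p = 0.00919). Lama2 was higher by 2.03 ± 0.33 (limma adjusted p = 0.00865). Itgb1 was lower in adult heart with a difference of -1.68 ± 0.30 by its used probe (limma adjusted p = 0.0103) and of only -0.75 by its second. Lamc1 differed by -0.60 ± 0.28 without passing (limma adjusted p = 0.143). The adult side is 1 array, whose own spread was not measured.

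No member passed between ventricular and atrial CMPs, where 0.00% of the 18806 genes tested passed and 8.23% had an unadjusted p under 0.05. For all 10 laminin chains tested, both ventricular values lay on 1 side of both atrial values. Over all 30 members tested this held for 21, and over all genes for 36.5%. For Lamb3 the gap in the living pair was only 0.02. Of the 30 members, 14 had an unadjusted limma p under 0.05. Lama5 was 1.09 and 1.24 in ventricular CMPs (postmortem, then living, here and in this comparison), against 4.67 and 3.20 in atrial CMPs, a difference of -2.77 ± 0.38 (limma adjusted p = 0.146). Lama1 was -1.36 and -2.16 in ventricular CMPs, against -3.62 and -2.81 in atrial CMPs, a difference of 1.46 ± 0.70 (limma adjusted p = 0.670). The used probes of Lama2, Lama4 and Lamc1 differed by 1.23 ± 0.27, 1.30 ± 0.43 and 0.90 ± 0.22, with limma adjusted p of 0.318, 0.520 and 0.390. Lamb2 differed by -0.42 ± 0.18, the only laminin chain tested here besides Lama5 with the ventricular values below the atrial ones.

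Among the integrins, Itga11 was 6.34 and 6.16 in ventricular CMPs, against 3.33 and 4.44 in atrial CMPs, a difference of 2.37 ± 0.49 (limma adjusted p = 0.289). The laminin receptor chains Itga3 and Itga6 lay on the other side, with differences of -1.19 ± 0.33 and -0.69 ± 0.16 (limma adjusted p = 0.443 and 0.362). For Itga6 this held for the used probe only, and the second probe gave 0.03 with overlapping chambers. Itga10 was -1.83 and -2.11 in ventricular CMPs, against 1.62 and -1.79 in atrial CMPs, a difference of -1.88 ± 0.72 (limma adjusted p = 0.584) that was -3.45 in the postmortem and -0.32 in the living pair. Itgb1 differed by 0.15 ± 0.24 (limma adjusted p = 0.931). Many of these differences were larger in the postmortem pair, which holds the array that stood apart: Itga11 differed by 3.01 in the postmortem and 1.72 in the living pair, Lama5 by -3.59 in the postmortem and -1.96 in the living pair, and Lama4 by 2.18 in the postmortem and 0.43 in the living pair. Fits without 1 CMP array passed 3 to 11 members, where 2.14% to 8.90% of all genes passed, and rest on a chamber side of 1 array.

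**Figure D4:**
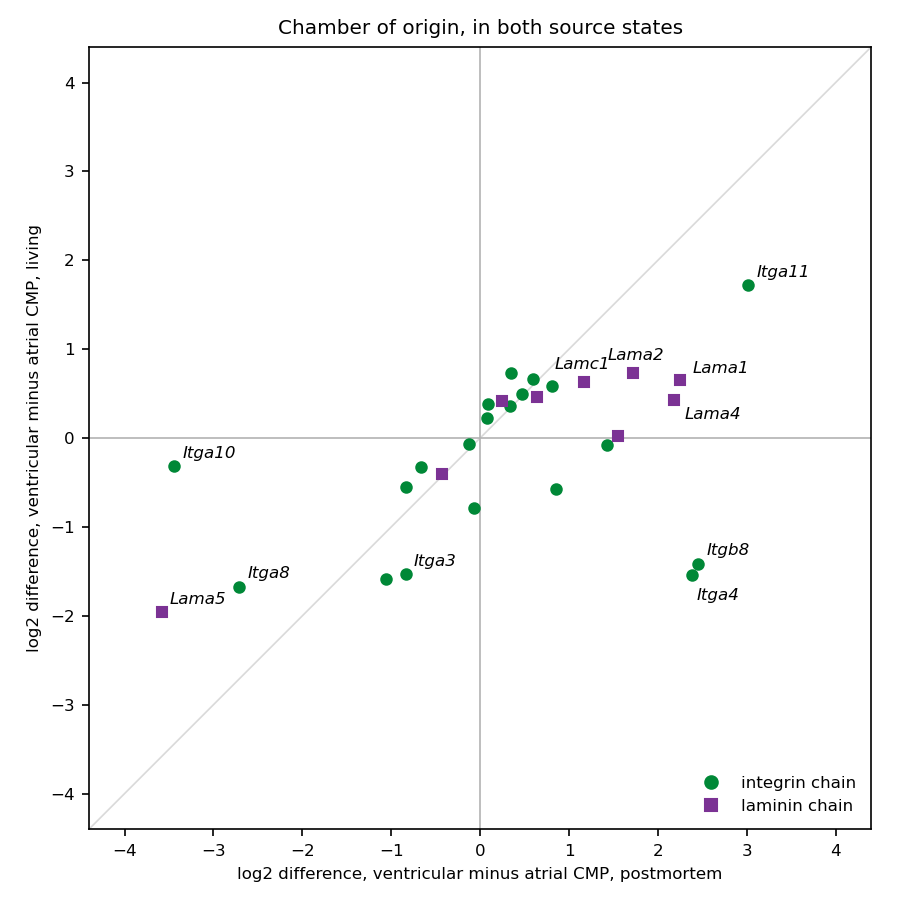
Log2 difference of ventricular minus atrial CMP for the tested members shown, in the postmortem pair (x axis) and in the living pair (y axis). Each axis is a difference between 2 single arrays, and the grey diagonal marks equal differences. Laminin chains (squares) lie in the same direction in both pairs, with Lama5 and Lamb2 below 0 and the others shown above.

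Between postmortem and living CMPs no member passed, where 0.106% of 18906 genes tested passed and 11.0% had an unadjusted p under 0.05. Of the 29 members tested, 4 had an unadjusted limma p under 0.05 and 6 did not overlap between the sources, against 44.0% of all genes. The shared chains did not pass either: Itgb1 differed by 0.17 ± 0.24 (limma adjusted p = 0.855) and Lamc1 by 0.00 ± 0.22 (limma adjusted p = 0.998). Itga8, a receptor chain for nephronectin known from kidney and smooth muscle, had the largest difference. It was 3.45 and 0.74 in postmortem CMPs (atrial, then ventricular, here and in this comparison), against -0.15 and -1.82 in living CMPs, a difference of 3.08 ± 0.42 (limma adjusted p = 0.135). Within the atrial pair it was 3.60 and within the ventricular pair 2.56, and postmortem atrial CMP lay above all 3 hearts. Over all CMPs it did not pass against fetal heart (-0.88 ± 0.37, limma adjusted p = 0.101) or adult heart (-0.11 ± 0.47). Its difference from fetal heart was -1.14 without the postmortem atrial or the living ventricular array. Fits without 1 of the 4 CMP arrays only returned the difference within 1 chamber: 2.56 without either atrial array and 3.60 without either ventricular array. No scatter among the CMPs entered their error. Such fits passed 2 to 10 members, where 2.03% to 8.82% of all genes passed, with a source side of 1 array. The 5 mural markers, of which Acta2 and Tagln had the highest values, summed to 157 to 340 in postmortem and 215 to 309 in living CMPs, overlapping ranges. Single markers of the list did not follow the sum. Cspg4, a pericyte proteoglycan, was 2.95 and 0.05 in postmortem CMPs, against -0.61 and -1.66 in living CMPs, the same order of arrays as Itga8 (difference 2.63 ± 0.56, limma adjusted p = 0.257). Rgs5, a pericyte marker, was 3.26 and -2.59 in postmortem CMPs, against 1.59 in living atrial CMP and a signal not well above background in living ventricular CMP (limma adjusted p = 0.196). Acta2 was 6.34 and 7.52 in postmortem CMPs, against 6.87 and 7.26 in living CMPs. Tagln was 5.87 and 7.27 in postmortem CMPs, against 6.56 and 7.28 in living CMPs. Of the 4 mural markers tested, 2 had a positive difference and 2 an unadjusted limma p under 0.05. The part of mural markers in the Itga8 level was not tested.

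Itgb8 was -3.89 and -1.44 in postmortem CMPs, against -0.01 and -1.42 in living CMPs, a difference of -1.95 ± 1.03 (limma adjusted p = 0.564) that lay in the atrial pair (-3.88) and not in the ventricular pair (-0.02). Itga7 was 1.31 and 1.24 in postmortem CMPs, against 2.98 and 2.19 in living CMPs, a difference of -1.31 ± 0.23 (limma adjusted p = 0.201). Itgal was -4.00 (not well above background) and -3.40 in postmortem CMPs, against -3.35 and -2.68 in living CMPs, a difference of -0.69 ± 0.40 (limma adjusted p = 0.603). The direction depended on the probe, since its other probes gave 0.31 and 0.35. Differences between postmortem and living CMPs were more often large in the atrial pair: 9 of 29 members (31.0%) differed at least 2-fold there and 3 of 29 (10.3%) in the ventricular pair, against 15.1% and 6.35% of all genes tested. The atrial pair holds the array that stood apart. In a fit that lets the postmortem difference depend on chamber, 3 of the 29 members passed, where 2.39% of all genes tested passed. They were Itga10 (ventricular pair less atrial pair -3.13, limma adjusted p = 0.0149), Itga4 (3.93, limma adjusted p = 6.57e-07) and Itgb8 (3.86, limma adjusted p = 0.0112). The spread in this fit rests on the fetal pair alone (1 residual degree of freedom), and none of the 3 passed after quantile normalization.

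**Figure D5:**
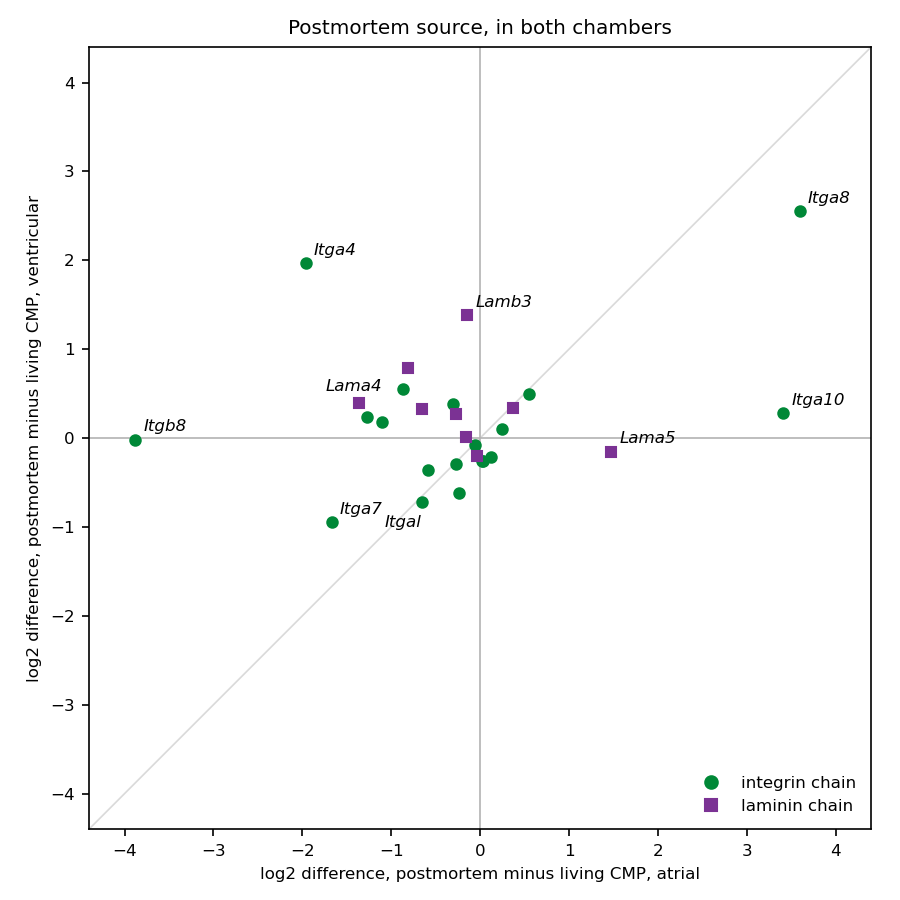
Log2 difference of postmortem minus living CMP for the tested members shown, in the atrial pair (x axis) and the ventricular pair (y axis). Each axis is a difference between 2 single arrays, and the grey diagonal marks equal differences. Itga8 is above 2 in both pairs, Itga10 and Itgb8 stand out in the atrial pair alone, and Itga4 has opposite signs (-1.96 and 1.97).

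The proteins that integrins and laminins work with were followed by 3 lists. Over all genes tested 22.8% were higher and 25.1% lower in CMPs than in fetal heart, and 24.6% in each direction against adult heart. Of 31 tested integrin linkers and signalling genes, 16 were higher and 7 lower in CMPs than in fetal heart, with a median of 0.65 (-0.01 over all genes). Against adult heart 13 of 29 were higher and 7 lower, with a median of 0.34 (-0.00 over all genes). The largest rises over fetal heart were Tns3 (2.05 ± 0.28), a tensin of fibrillar adhesions, Actn1 (1.88 ± 0.16), the actin crosslinker of adhesions, and Kank2 (1.81 ± 0.15), which binds talin. The largest falls were Itgb1bp2, the striated muscle protein melusin, at least 53.9-fold, Itgb1bp3 (-4.99 ± 0.49), which is muscle-related, and Fermt3, the kindlin of blood cells, at least 5.80-fold. Among the CMPs Itgb1bp3 was well above background in living atrial CMP alone, so its difference rests mostly on dim CMP signals. Of 22 tested basement membrane partners and other laminin receptors, 11 were higher and 7 lower than in fetal heart, with a median of 0.57. Against adult heart 7 of 22 were higher and 6 lower, with a median of 0.37. Col15a1 (3.87 ± 0.48), a basement membrane zone collagen, the laminin-related netrin Ntn4 (2.73 ± 0.41) and the sarcoglycan Sgcb (2.24 ± 0.19) rose most over fetal heart. Among the largest falls were the muscle sarcoglycan Sgca (-5.07 ± 0.54) and dystrophin, Dmd, at least 4.52-fold. Of 18 tested other integrin ligands, 10 were higher and 3 lower than in fetal heart, with a median of 1.23. Against adult heart 12 of 15 were higher and 1 lower, with a median of 2.97. Spp1, the RGD protein osteopontin (6.38 ± 0.78), Cyr61, a matricellular ligand of Itgav integrins (4.04 ± 0.16), and Icam1, a ligand of leukocyte integrins (3.74 ± 0.21), rose most over fetal heart, and Edil3, an RGD protein of vessels, at least 8.24-fold, Icam2 (-3.92 ± 0.67) and Madcam1 (-3.27 ± 0.52), the counter-receptor of the Itga4 and Itgb7 pair, fell most. The muscle genes among the falls moved with the cardiomyocyte markers given above, whose part was not tested.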

How the data were processed

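Per the labels' protocols, 250 ng of total RNA per sample was labelled with Cy3, hybridised and scanned. The deposited intensity values are spot signals from Agilent Feature Extraction, after spatial and multiplicative detrending within the array, per the file headers (version 10.7.3.1 in the headers, 9.5.3 in the submitters' processing notes). The authors' series table holds log2 values as deposited, which matched log2 of the processed signal minus 1 constant per array within 0.001 for 100% of the probes checked. The constants ran between 7.75 and 8.66 and the column medians between -4.25 and -3.60; how the constant was set is not given in the sources used here. The table served as an alternative.

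From there, spots of a probe were averaged, 295 of 55681 probes with an outlier flag were left out (no member probe), and values are log2 of the processed signal minus the array's 75th percentile. A gene is its probe of highest mean over the 7 arrays. A gene was tested where all arrays of either side read its probe as well above background. All 7 arrays entered 1 limma 3.58.1 fit (R 4.3.3, eBayes with a trend) with terms for postmortem CMP, living CMP, adult heart, fetal heart and chamber, leaving 2 residual degrees of freedom. These come from the fetal pair and from the chamber difference varying between postmortem and living CMPs. P-values are two-sided and adjusted by Benjamini-Hochberg over all genes tested, with a threshold of 0.05. Where 1 side was dim on all its arrays, a fold is given as "at least", from the brighter side's mean over the dim side's detection floor. The accessions of 43 member probes were found in RefSeq. The text gives values on all arrays for the 6 largest called differences per direction against each heart, the 4 largest in the other comparisons (without overlap between sources or chambers), Itgb1 and Lamc1, and shorter values for the rest. The sequences are those of the array's files. Some genes and a probe sequence are not reported here, though counts over the members and lists include those genes. The members and all lists were chosen with earlier results of these data known. Alternatives were normexp background correction, quantile normalization, the series table, the mean of a gene's probes, other filters on dim probes, other variance settings, no chamber term, the CMP arrays alone and leaving out each array, and, added after seeing the data, leaving out single outlier spots in place of their probes. The slide block was not run because all arrays lie on 1 slide with 1 scan.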

Additional observations from a re-analysis of the deposited data

Results flagged for a closer look

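Within the 4 CMP arrays, the value of 1 array lay far from the other 3 for 3 members, by the ratio of its gap to the whole range beyond Dixon's critical value for 4 samples. The ratio was 0.834 for Itga1 and 0.915 for Itga10, both through postmortem atrial CMP, and 0.892 for Lamb3 through postmortem ventricular CMP. Chance alone gives about 1 in 20 such groups, and 36 members were looked at, 31 of them detected on at least 1 CMP array.

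The postmortem difference depended on chamber for 3 members in the fit with that term. The ventricular less the atrial difference was -3.13 for Itga10, 3.93 for Itga4 and 3.86 for Itgb8. For Itga4 the difference was 1.97 in the ventricular and -1.96 in the atrial pair. For Itga10 it was 0.28 in the ventricular and 3.41 in the atrial pair. For Itgb8 it was -0.02 in the ventricular and -3.88 in the atrial pair. With quantile normalization the limma adjusted p was 0.416 for Itga10, 0.368 for Itga4 and 0.775 for Itgb8.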

How the results depend on the processing

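Members called against fetal heart numbered 20, and 13 to 24 with 1 array left out, 13 of them without the wild type fetal array. Against adult heart 21 were called and 13 with a filter that asks for both sides above background, which leaves fewer genes tested. Between postmortem and living CMPs 0 were called, 1 without a filter (Itga8), and 0 to 10 with 1 array left out. Between ventricular and atrial CMPs 0 were called, and 0 to 11 with 1 array left out. The count of 3 members whose postmortem difference depended on chamber was 0 with quantile normalization. The cause was not tested. Lamc1 between postmortem and living CMPs turned to -0.27 without either ventricular array and was 0.27 without either atrial array, past no threshold. Of the results for single named genes, 701 kept direction and side of the threshold, 22 passed newly, 21 no longer passed and 2 turned. With normexp the calls of Lama1, Itgb8, Itga2 and Itgal against adult heart and of Lamc3 against fetal heart were lost. Without the chamber term the calls against fetal heart were 14, losing Itga3, Lama2, Lama5, Lamb3, Lamc1 and Lamc3, and those against adult heart 18, losing Lama1, Lama4 and Lamc1. Between adult and fetal heart 16 were called and 12 to 18 under the alternatives to the processing; the calls of Lama2, Lamb3 and Itga5 were among those lost without the chamber term, and that of Itgb6 without the trend. Against fetal heart Itgb3 and Lamb3 were also lost with quantile normalization, without the trend and with a robust prior. Against adult heart Itgb8 was lost without the trend and with a robust prior, and Lama1 without the trend. Leaving out single outlier spots moved no count. With normexp the median of all genes between adult and fetal heart was 0.139, against 0.089 without it. No paired analysis was possible because the labels give no replicate numbers shared between the groups; chamber, which pairs the CMP arrays, is a term of the fit. Signal over background limits Itgb7, Itgb6, Itgax and the adult level of Lama1 to bounds.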
